A study of Mus musculus with 3 samples.

Results

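The oxidative phosphorylation genes described here were the 107 of 32285 annotated genes whose symbols begin with mt-, Nduf, Uqcr, Cox4 to Cox8 or Atp5, or are Sdha, Sdhb, Sdhc or Sdhd. Of these, 13 are encoded by the mitochondrial genome and 94 by the nuclear genome. The nuclear members comprised 37 genes of complex I, 4 of complex II, 8 of complex III, 20 of complex IV, 17 of complex V and 8 Ndufaf assembly factors of complex I. They were followed in single cells of fracture callus from female C3H/HeJ mice, a strain with slow fracture healing. All mice were 9 weeks old, had a pinned femur with a midshaft fracture, and were sampled on day 7. The YKL group received YKL-05-099, an inhibitor of salt-inducible kinases, at 15 mg/kg. The PTH group received PTH 1-34, an active fragment of parathyroid hormone, at 100 µg/kg. The Control group received vehicle, and all agents were injected under the skin daily. Each group was 1 library, and how many mice were pooled in each is not given in the sources used. No test between groups was therefore possible. The 95% intervals below are exact, cover counting error only and say nothing about the spread between mice.

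Oxidative phosphorylation passes electrons from NADH and succinate along complexes I to IV of the inner mitochondrial membrane and uses the resulting proton gradient to make ATP in complex V. All complexes except complex II combine subunits from both genomes, so the cell has to supply transcripts from the nucleus and from the mitochondrion. The mitochondrial genome is transcribed as long precursors that are cut into messenger RNAs, whereas each nuclear gene has its own promoter. Cartilage has no blood vessels, and its chondrocytes are known for a strong reliance on glycolysis.

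The deposited matrices held unique molecular identifiers (UMIs), each standing for a captured RNA molecule. They covered 1500 barcodes and 19424073 UMIs in the YKL library, 5286 barcodes and 33981167 UMIs in the PTH library, and 8021 barcodes and 55250651 UMIs in the Control library. Few cell barcodes were shared between libraries (2 between YKL and PTH, 3 between YKL and Control, 8 between PTH and Control). Cells in which 500 or more genes were detected and mt- genes took no more than 10% of UMIs were clustered, leaving the 107 members out of the genes used. The 6 chondrocyte-like clusters each counted at least 14 markers of chondrocytes or hypertrophic chondrocytes. They held 408 YKL, 656 PTH and 1419 Control cells, with median depths of 30302 UMIs per YKL cell, 18078 per PTH cell and 16726 per Control cell. Levels are UMIs summed over the cells of a class and scaled to a class total of 1000000 (CPM). Reads were taken from the 3′ end, so levels were not divided by transcript length. Between single genes, levels are compared as shares of close isoforms and to name the largest member of each complex. The ratio of the mitochondrially encoded to the nuclear sum also sets unlike genes side by side. It is read only against the same ratio in other cells or libraries.

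The mitochondrially encoded and nuclear members did not keep a fixed proportion to each other across cell types. In chondrocyte-like cells the 13 mitochondrially encoded members summed to 18484 CPM in YKL, 26175 CPM in PTH and 24804 CPM in Control. The 94 nuclear members summed to 23748 CPM in YKL, 21042 CPM in PTH and 22545 CPM in Control. The ratio of the mitochondrially encoded to the nuclear sum was thus 0.778 in YKL, 1.24 in PTH and 1.10 in Control. These were the lowest ratios among the classes with at least 50 cells in the same library.

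In the vascular lining cells, the endothelial-like class, the ratio was 2.54 in YKL (51 cells), 2.79 in PTH (287 cells) and 2.60 in Control (184 cells). Fibroblast-like cells had ratios of 2.93 in PTH and 2.72 in Control, and pericyte-like cells had 2.56 in PTH and 2.18 in Control. Macrophage-like cells were nearer to the chondrocytes, with 1.40 in PTH and 1.69 in Control. This class also held osteoclast RNA, and its nuclear sum was lower in a clustering where osteoclast-like cells separated, as given below. The gap between chondrocyte-like and endothelial-like cells came mainly from the mitochondrially encoded sum. That sum was 54059 CPM in YKL, 58725 CPM in PTH and 53965 CPM in Control endothelial-like cells, against nuclear sums of 21288, 21050 and 20743 CPM in the same libraries. The highest ratios of classes with at least 50 cells were 3.57 in T or NK-like and 3.27 in neutrophil-like cells of the Control library. In neutrophil-like cells the nuclear sum was low, at 9353 CPM. Classes also differed in depth, with a median of 6197 UMIs in YKL, 5974 in PTH and 5214 in Control endothelial-like cells, and the part of depth in these ratios was not tested.

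**Figure D1:**
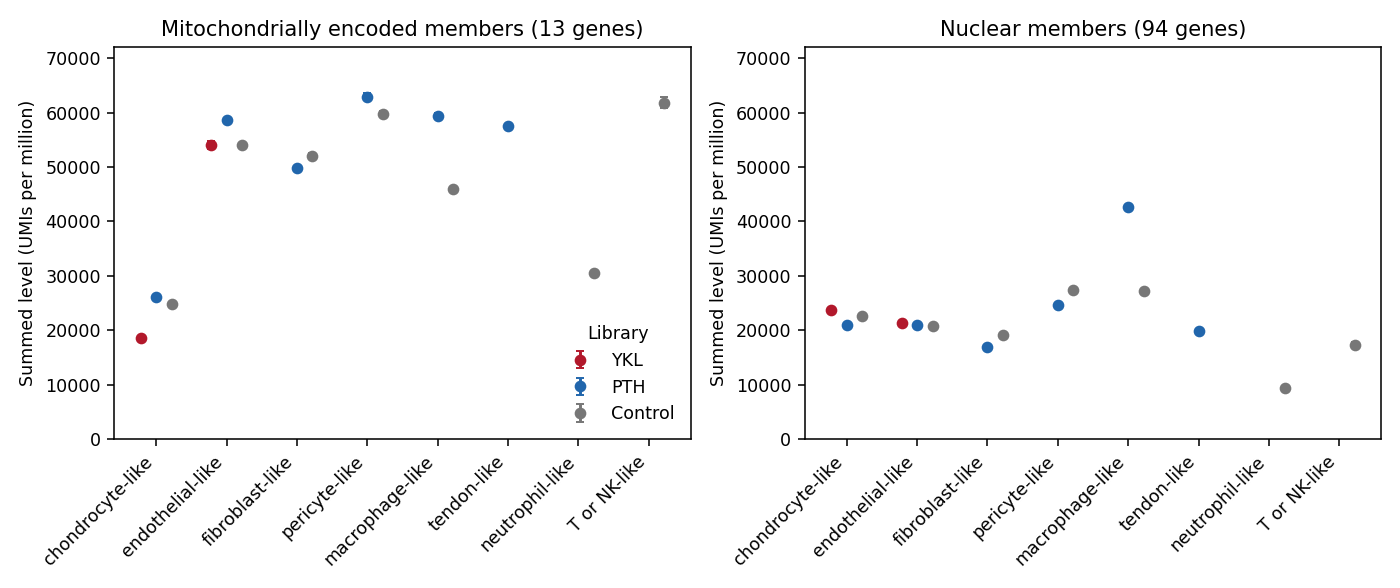
Summed level of the 13 mitochondrially encoded members (left) and the 94 nuclear members (right) in CPM, by cell class, with a point per library and bars for exact 95% counting intervals. Only classes with at least 50 cells in a library are drawn. Chondrocyte-like cells lie lowest on the left, between 18484 and 26175, and within the range of most other classes on the right.

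Within the chondrocyte-like class, the YKL library had less mitochondrially encoded RNA than the other libraries. Its nuclear-encoded sum was slightly higher, a direction that turned round (0.947 for YKL over Control) when members of at most 600 bases were left out. That cut was added after the values were seen, and it removes most of the nuclear members past 1.5-fold higher in YKL. The mitochondrially encoded sum was 0.745 times that of Control (95% interval 0.742 to 0.749), and the nuclear sum was 1.05 times that of Control (1.05 to 1.06). Against PTH, the YKL ratios were 0.706 (0.702 to 0.710) for the mitochondrially encoded and 1.13 (1.12 to 1.13) for the nuclear sum. PTH differed less from Control, with 1.06 (1.05 to 1.06) for the mitochondrially encoded and 0.933 (0.929 to 0.938) for the nuclear sum. Restricted to cells of 10000 to 30000 UMIs, the mitochondrially encoded ratio was 0.469 for YKL over Control and 0.988 for PTH over Control, so the PTH ratio changed side. This range did not match depth, with medians of 24381 UMIs in YKL (159 cells) and 17545 in Control (1175 cells). Per cell, the median share of mt- UMIs was 1.04% in YKL, 2.12% in PTH and 2.16% in Control.

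The mitochondrially encoded sum of YKL was below that of Control in each of 3 bins of depth. From shallowest to deepest the bins held 50, 43 and 315 YKL cells, and depth and clusters were not matched within them. When all chondrocyte-like cells were split into 3 bins by UMIs per cell, the mitochondrially encoded sum was 18197 CPM in YKL and 24592 CPM in Control in the shallowest bin. It was 16063 CPM in YKL and 23372 CPM in Control in the middle bin, and 18660 CPM in YKL and 26734 CPM in Control in the deepest bin. Other measures also moved with the library. The nuclear RNA Malat1, often read as a sign of nuclear RNA and cell quality, stood at 21225 CPM in YKL, 16912 CPM in PTH and 10776 CPM in Control. For 10 genes induced by dissociation or heat shock the median log2 ratio was 0.48 in YKL over Control and 0.52 in PTH over Control. Haemoglobin took 0.029% of chondrocyte UMIs in YKL, 0.037% in PTH and 0.262% in Control. The part of these in the result was not tested.

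The ratio varied more among the chondrocyte clusters than among the libraries. The leading genes of cluster 3 were 2610528A11Rik, Espn and Nrn1, followed by cartilage collagens and by Adm, Ero1l and Bnip3, which are known to respond to low oxygen. It had the lowest ratio of mitochondrially encoded to nuclear members, 0.215 in YKL (82 cells), 0.556 in PTH (79 cells) and 0.479 in Control (161 cells). Cluster 7, led by Ibsp, Panx3 and Mia, had 1.83 in YKL (58 cells), 1.82 in PTH (61 cells) and 1.80 in Control (52 cells). Cluster 5, led by the growth plate genes Ucma, Mia and Cnmd, had 1.75 in PTH (178 cells) and 1.57 in Control (441 cells), and only 10 YKL cells.

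Between these ends lay 3 further clusters. Cluster 0, led by the hypertrophic genes Ibsp, Col10a1 and Ihh, had ratios of 0.636 in YKL, 0.961 in PTH and 0.977 in Control. Cluster 6, led by Omd and Col9a3, had 0.566 in YKL, 0.920 in PTH and 0.866 in Control, and cluster 8, led by Panx3 and Col9a3, had 0.502 in YKL, 0.687 in PTH and 0.664 in Control. Nuclear members barely varied between clusters. Over the clusters with at least 20 cells their sum ranged between 22298 and 24977 CPM in YKL, between 20087 and 22088 CPM in PTH and between 22226 and 23767 CPM in Control. The mitochondrially encoded sum ranged over the same clusters between 5226 and 40713 CPM in YKL, between 11170 and 40233 CPM in PTH and between 10654 and 41421 CPM in Control.

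Clusters that also carried chondrocyte markers but were led by osteoblast genes or held over 10% haemoglobin UMIs stayed unnamed. These were cluster 1 with 34 YKL, 101 PTH and 160 Control cells, where the ratio was 1.24 in YKL, 2.05 in PTH and 1.44 in Control, and cluster 2 with 4 YKL, 25 PTH and 125 Control cells.

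The libraries filled these clusters unequally, so the class totals mix states in different proportions. Most YKL chondrocytes lay in clusters 0 (40.0%) and 3 (20.1%), those of PTH in clusters 5 (27.1%) and 6 (25.8%), and those of Control in clusters 6 (33.1%) and 5 (31.1%). Within clusters the YKL sum of mitochondrially encoded members was still below Control in all 5 clusters with at least 20 cells in both libraries. The YKL over Control ratio was 0.490 in cluster 3, 0.677 in cluster 0, 0.699 in cluster 6, 0.795 in cluster 8 and 0.983 (0.972 to 0.994) in cluster 7. The size of the difference was thus not the same in every cluster. It was widest in cluster 3, where mt- RNA was scarcest. It did not follow the mt- level throughout, since cluster 8, the next scarcest, differed less than clusters 0 and 6. For PTH over Control the ratio was above 1 in clusters 3 (1.05) and 5 (1.04) and below 1 in the other 4, between 0.930 and 0.971. The nuclear sum of PTH was below Control in all 6 clusters, with ratios between 0.904 and 0.958. With every cluster given equal weight the ratio of the mitochondrially encoded sum was 0.795 for YKL over Control and 0.986 for PTH over Control.

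**Figure D2:**
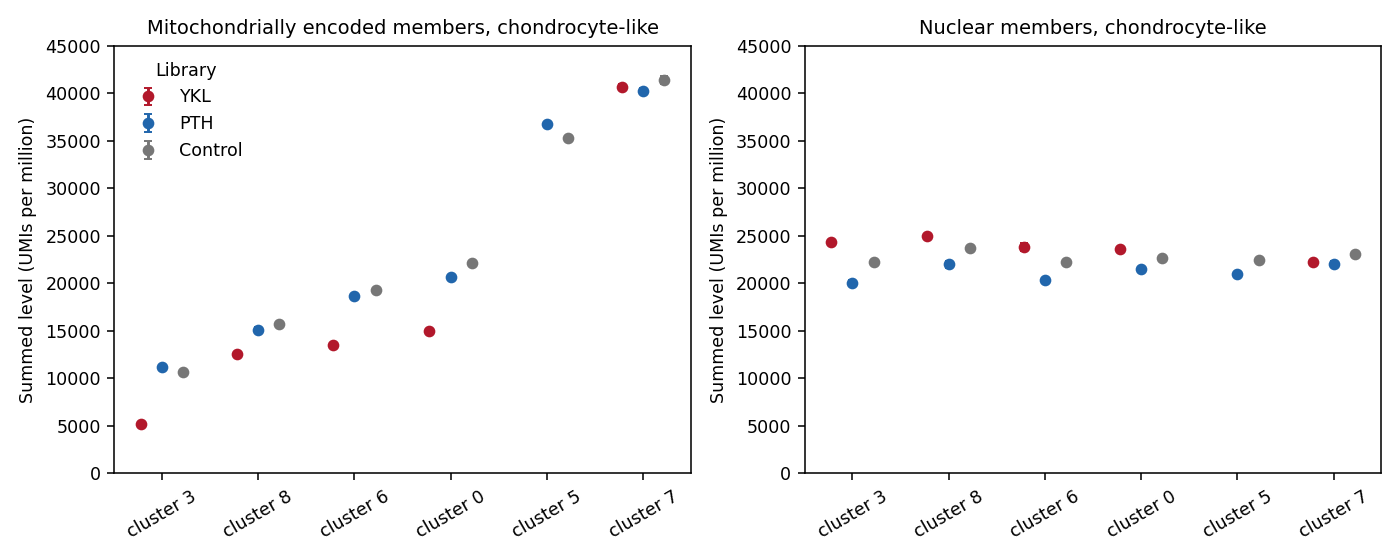
Summed level in CPM of the mitochondrially encoded (left) and nuclear (right) members in the 6 chondrocyte-like clusters, ordered by the level on the left, with a point per library of at least 20 cells and bars for exact 95% counting intervals. The left panel runs between 5226 and 41421 across clusters, while the right panel stays between 20087 and 24977.

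The mitochondrial genome contributes 7 subunits of complex I, 1 of complex III, 3 of complex IV and 2 of complex V. Of the 13 genes, 3 passed 1.5-fold in YKL over Control chondrocytes, 2 of them higher and 1 lower. Of all 11340 genes with at least 50 UMIs in this comparison, 18.3% passed 1.5-fold, 9.9% higher and 8.44% lower. The median log2 ratio of the 13 was −0.38, with 10 below 0, and that of all genes was −0.02. Cytochrome c oxidase subunit mt-Co3 had 3371 CPM in YKL, 5035 CPM in PTH and 5080 CPM in Control, a YKL over Control ratio of 0.663 (0.656 to 0.671). Its partner mt-Co1, which carries the catalytic site, had 2706 CPM in YKL, 3741 CPM in PTH and 3955 CPM in Control. Both were lowest in YKL. The other complex IV subunit, mt-Co2, gave a YKL over Control ratio of 0.748, and mt-Cytb, the complex III subunit, 0.676. The complex V subunit mt-Atp6 had a ratio of 0.766. Among complex I genes, the YKL over Control ratio was 0.753 for mt-Nd4, 0.711 for mt-Nd6, 0.810 for mt-Nd4l, 0.839 for mt-Nd5, 0.847 for mt-Nd2 and 1.09 for mt-Nd1.

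A pair of short genes, mt-Atp8 and mt-Nd3, departed from the rest in the same direction in both treated libraries. The complex V subunit mt-Atp8 had 71.2 CPM in YKL, 69.2 CPM in PTH and 38.3 CPM in Control chondrocytes. Its ratio was 1.86 (1.69 to 2.04) for YKL over Control and 1.81 (1.64 to 1.99) for PTH over Control. The complex I subunit mt-Nd3 had 343 CPM in YKL, 356 CPM in PTH and 215 CPM in Control, with ratios of 1.6 (1.53 to 1.66) and 1.66 (1.59 to 1.73) for YKL and PTH over the same Control library. YKL and PTH were close to each other and above Control for both genes. In endothelial-like cells mt-Atp8 had 276 CPM in YKL, 196 CPM in PTH and 93.8 CPM in Control. In PTH over Control it also stood at 2.01 in fibroblast-like, 2.12 in macrophage-like and 2.08 in pericyte-like cells. The PTH over Control ratio of mt-Nd3 was 2.01 in macrophage-like cells, but 1.41 in fibroblast-like and 1.25 in pericyte-like cells, short of 1.5-fold. All these comparisons share the Control library.

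In PTH over Control chondrocytes mt-Atp8 and mt-Nd3 were the only mitochondrially encoded members past 1.5-fold, where 8.57% of 11277 genes passed, 5.19% higher and 3.39% lower. The other 11 lay between 0.946 (mt-Co1) and 1.37 (mt-Nd4l), and the median log2 ratio of the 13 was 0.16. In YKL over PTH, where 13% of 10757 genes passed, 6.7% higher and 6.3% lower, the members past 1.5-fold were mt-Nd4l at 0.589 (132 CPM in YKL, 224 CPM in PTH) and mt-Cytb at 0.641 (2130 CPM in YKL, 3324 CPM in PTH). Here 12 of the 13 were below 1.

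The reading frames of mt-Atp8 and mt-Nd4l each run into the next gene on the same strand, and how molecules spanning a pair were assigned is not given in the sources used. The counts of mt-Atp8 and mt-Atp6, or of mt-Nd4l and mt-Nd4, can therefore not be read as counts of separate RNAs. The 204 bases of mt-Atp8 share their last 43 with mt-Atp6, and the 297 bases of mt-Nd4l share their last 7 with mt-Nd4. They are shown because both genes passed 1.5-fold in a comparison above. Sequences are from GRCm38, plus strand, 5′ to 3′, at chrM:7766-7969 and chrM:9877-10173, with the shared bases in capitals.
mt-Atp8: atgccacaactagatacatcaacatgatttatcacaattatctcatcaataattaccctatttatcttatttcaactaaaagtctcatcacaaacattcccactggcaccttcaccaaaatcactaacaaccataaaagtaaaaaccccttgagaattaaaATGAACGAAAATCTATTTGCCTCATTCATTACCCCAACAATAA
mt-Nd4l: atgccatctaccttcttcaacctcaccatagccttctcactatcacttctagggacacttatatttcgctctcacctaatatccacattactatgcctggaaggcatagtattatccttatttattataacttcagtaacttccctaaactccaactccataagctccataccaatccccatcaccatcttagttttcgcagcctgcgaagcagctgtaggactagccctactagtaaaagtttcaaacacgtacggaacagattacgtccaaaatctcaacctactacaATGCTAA

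By complex, the mitochondrially encoded to nuclear ratio in chondrocyte-like cells was lower in YKL than in Control for each of the 4 complexes with subunits from both genomes. For complex I it was 0.550 in YKL, 0.817 in PTH and 0.644 in Control, and for complex III it was 0.910 in YKL, 1.59 in PTH and 1.42 in Control. For complex IV it was 1.24 in YKL, 2.01 in PTH and 1.83 in Control, and for complex V it was 0.555 in YKL, 0.870 in PTH and 0.763 in Control. PTH was above Control in all 4. Complex II, the succinate dehydrogenase that also serves the citric acid cycle, has only nuclear subunits. Of these the flavoprotein Sdha had 41.2 CPM in YKL, 36.6 CPM in PTH and 33.9 CPM in Control, and the iron-sulfur subunit Sdhb had 85.0 CPM in YKL, 80.2 CPM in PTH and 102 CPM in Control. The membrane anchor Sdhc had 33.8 CPM in YKL, 31.7 CPM in PTH and 35.8 CPM in Control. Its partner Sdhd had 85.2 CPM in YKL, 56.3 CPM in PTH and 68.7 CPM in Control, and passed 1.5-fold in YKL over PTH (1.51, 1.37 to 1.67).

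Among nuclear members, 90 of 94 had at least 50 UMIs over the YKL and Control chondrocytes. Of these, 9 were more than 1.5-fold higher and 3 lower in YKL, out of 9.9% higher and 8.44% lower among all genes. The median log2 ratio of the 90 was −0.00, with 44 above 0 and 46 below. The 9 higher members belong to complexes I, IV and V. The complex I subunit Ndufa1 had 199 CPM in YKL, 107 CPM in PTH and 85.9 CPM in Control, a YKL over Control ratio of 2.31 (2.18 to 2.45). Ndufb1-ps, which carries a pseudogene suffix in its symbol, had 325 CPM in YKL, 206 CPM in PTH and 156 CPM in Control, a ratio of 2.08 (1.99 to 2.18). The complex I subunit Ndufa3 had 131 CPM in YKL, 90.8 CPM in PTH and 66.7 CPM in Control, a ratio of 1.97 (1.84 to 2.11). For all 3 the order was YKL, then PTH, then Control.

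Complexes IV and V held the other 6 higher members. Cox6c had 788 CPM in YKL, 538 CPM in PTH and 455 CPM in Control, and Cox7c had 899 CPM in YKL, 662 CPM in PTH and 552 CPM in Control. Their YKL over Control ratios were 1.73 and 1.63. In complex V, the subunit e gene Atp5k had 273 CPM in YKL, 202 CPM in PTH and 159 CPM in Control (YKL over Control 1.71, 1.64 to 1.79). The ratios of Atp5e (epsilon subunit), Atp5md and Atp5mpl were 1.62, 1.58 and 1.54. For these genes too, PTH lay between YKL and Control, and its ratio over Control was between 1.18 for Cox6c and 1.27 for Atp5k. In YKL over PTH the nuclear members past 1.5-fold and higher were Ndufa1 (1.86), Ndufb1-ps (1.57), Sdhd (1.51) and the complex III subunit Uqcrq at 1.5 (323 CPM in YKL, 215 CPM in PTH). Lower were Cox6b2 (0.631) and Cox6a2 (0.616, 0.338 to 1.10).

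Most of the higher nuclear members have short annotated transcripts. Of the 31 nuclear members whose median protein-coding transcript is at most 600 bases, 7 were past 1.5-fold higher in YKL over Control (22.6%). Of the 35 with 600 to 1000 bases 1 was, and none of the 19 with 1000 to 2000 bases or of the 4 longer ones. Among genes other than the members of at most 600 bases, 13.8% were past 1.5-fold higher. Ndufb1-ps has no such transcript in the annotation used. Across 89 nuclear members the Spearman correlation of the ratio with transcript length was −0.35 for YKL over Control and −0.38 for PTH over Control. Across genes other than the members it was 0.05 and 0.16. These points come from the same pair of libraries and are not independent. When the sum was taken over nuclear members longer than 600 bases, the YKL over Control ratio was 0.947 instead of 1.05, and the PTH over Control ratio was 0.886 instead of 0.933. This cut was added after the values were seen. It leaves out 7 of the 9 higher members by their length, and also Ndufb1-ps, so a lower YKL ratio was built into it. Of the 4 mitochondrially encoded genes of at most 600 bases, mt-Atp8 (204 bases) and mt-Nd3 (348 bases) were higher in YKL than in Control, and mt-Nd4l (297 bases, 0.810) and mt-Nd6 (519 bases, 0.711) were lower. These lengths are medians over the annotated transcripts of a gene, which need not be those expressed in these cells, so single genes may sit in another bin. The part of transcript length in these differences was not tested.

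The members lower in YKL over Control belong to complex IV or its neighbours. Ndufa4l2, a low-oxygen paralog of the complex IV subunit Ndufa4, had 729 CPM in YKL, 818 CPM in PTH and 1408 CPM in Control. Its ratio was 0.518 (0.506 to 0.530) for YKL over Control and 0.581 (0.568 to 0.594) for PTH over Control. It was the only nuclear member past 1.5-fold in PTH over Control, and there 68 of the 90 measured were below 1, with a median log2 ratio of −0.11. Cox6b2, known as a testis isoform, had 7.33 CPM in YKL, 11.6 CPM in PTH and 15.1 CPM in Control (YKL over Control 0.486, 0.383 to 0.612). Cox6a2, the heart and muscle isoform, had 1.64 CPM in YKL, 2.66 CPM in PTH and 2.55 CPM in Control, and the interval of its YKL over Control ratio (0.372 to 1.07) included 1. Over all barcodes of the 3 libraries pooled, the nuclear members with most UMIs in the other complexes were Ndufa13 in complex I (374 CPM in YKL, 398 CPM in PTH and 432 CPM in Control), Uqcrh in complex III (661, 680 and 725 CPM in the same order), Sdhb in complex II and Atp5e in complex V.

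**Figure D3:**
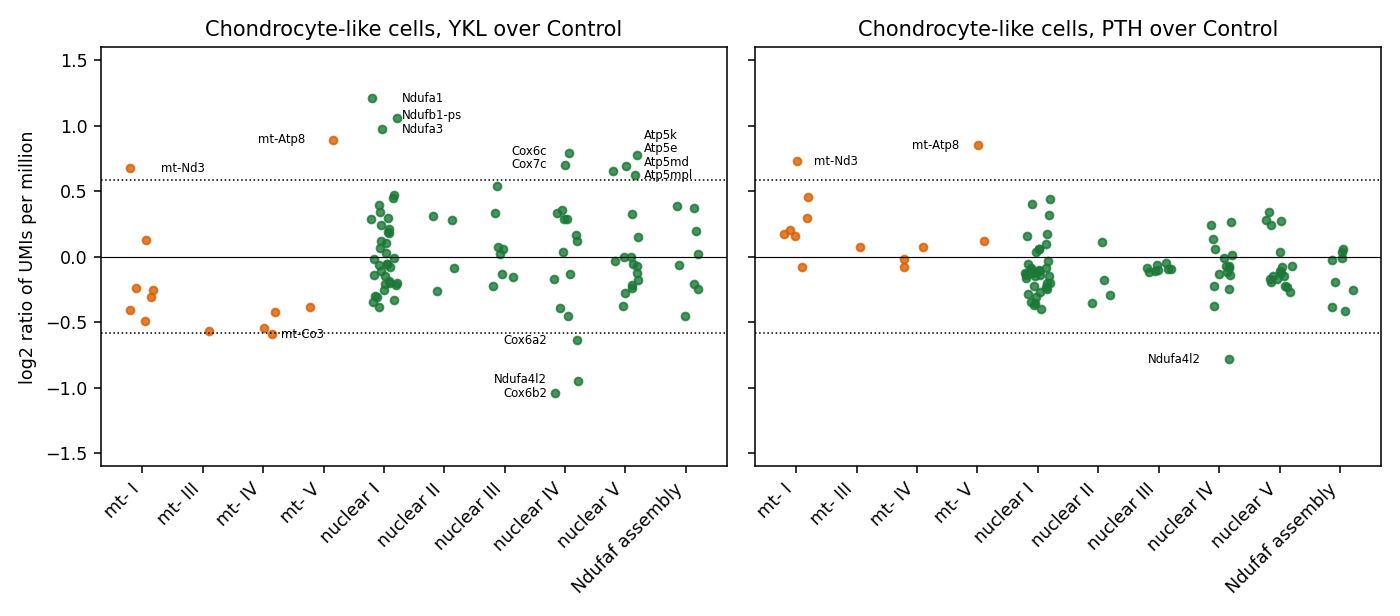
Log2 ratio of CPM for each member with at least 50 UMIs in chondrocyte-like cells, YKL over Control (left) and PTH over Control (right), grouped by genome and complex. Dotted lines mark 1.5-fold. On the left most mitochondrially encoded members lie below 0 and 9 nuclear members lie above the upper line, and on the right the members past a line are mt-Atp8, mt-Nd3 and Ndufa4l2.

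A sequence bound by nuclear respiratory factor 1, a known activator of nuclear respiratory genes, was searched in the 300 bases around the start of each nuclear member. The letters GCGCA, any base and GCGC, on either strand, were in 19 of the 75 nuclear members matched by symbol to a RefSeq promoter (25.3%), and in 1402 of 27025 genes with such a promoter (5.19%). A gene counted if any of its promoters had a match, and the sets were not matched for base content. A match is only a run of letters. The promoters of 3 members with a match are shown, Atp5k, Sdhd and the ubiquitous complex IV isoform Cox6a1, which had 330 CPM in YKL, 239 CPM in PTH and 261 CPM in Control. They are from RefSeq on GRCm38.p6, minus strand, 5′ to 3′, at chr5:108434350-108434649, chr9:50603800-50604099 and chr5:115348909-115349208. Capitals mark the matched letters, of which Cox6a1 has 2 sites.
Atp5k: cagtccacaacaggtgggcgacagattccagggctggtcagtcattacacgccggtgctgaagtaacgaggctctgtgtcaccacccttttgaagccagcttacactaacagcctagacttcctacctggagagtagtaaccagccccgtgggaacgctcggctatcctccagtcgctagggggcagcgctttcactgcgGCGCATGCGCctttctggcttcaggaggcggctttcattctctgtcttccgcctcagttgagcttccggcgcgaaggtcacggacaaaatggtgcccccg
Sdhd: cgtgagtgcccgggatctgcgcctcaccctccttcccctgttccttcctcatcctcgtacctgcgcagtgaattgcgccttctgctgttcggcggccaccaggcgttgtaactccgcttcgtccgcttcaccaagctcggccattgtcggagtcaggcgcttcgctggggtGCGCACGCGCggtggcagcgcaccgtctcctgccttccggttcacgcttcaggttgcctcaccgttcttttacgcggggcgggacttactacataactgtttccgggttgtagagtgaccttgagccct
Cox6a1: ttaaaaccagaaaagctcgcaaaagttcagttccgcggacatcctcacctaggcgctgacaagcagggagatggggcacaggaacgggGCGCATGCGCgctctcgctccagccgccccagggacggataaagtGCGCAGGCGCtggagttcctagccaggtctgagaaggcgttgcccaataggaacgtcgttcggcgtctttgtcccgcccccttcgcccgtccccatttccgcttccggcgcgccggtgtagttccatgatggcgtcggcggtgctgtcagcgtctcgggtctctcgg

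Chondrocyte-like cells used a set of complex IV isoforms unlike that of most other classes. Cox4i2 is the isoform of subunit 4 known from lung and from cells at low oxygen, and Cox4i1 is the common isoform. Cox4i2 had 666 CPM in YKL, 599 CPM in PTH and 544 CPM in Control chondrocytes, and Cox4i1 had 652 CPM in YKL, 629 CPM in PTH and 733 CPM in Control chondrocytes. Cox4i2 thus made up 50.5% (49.8 to 51.3) of the pair in YKL, 48.8% (48.0 to 49.6) in PTH and 42.6% (42.0 to 43.2) in Control. In pericyte-like cells the share was 26.4% in PTH and 24.6% in Control, and in endothelial-like cells 2.32% in YKL, 5.59% in PTH and 4.68% in Control. It was below 1.4% in fibroblast-like and macrophage-like cells. In macrophage-like PTH cells 0 of 1651 UMIs of the pair were Cox4i2, which allows a share of up to 0.182% at a floor of 3 counts.

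Ndufa4l2 was likewise high in chondrocytes and pericytes. Its share of the Ndufa4l2 and Ndufa4 pair was 80.1% in YKL, 77.7% in PTH and 85.0% in Control chondrocytes, and 85.6% in PTH and 83.2% in Control pericyte-like cells. In endothelial-like cells it was 10.7% in YKL, 10.8% in PTH and 16.3% in Control. Both treated libraries thus had a higher Cox4i2 share and a lower Ndufa4l2 share than Control in chondrocytes. The muscle isoforms Cox7a1, Cox6a2 and Cox8b made up at most 1.10% of their pairs with Cox7a2, Cox6a1 and Cox8a in the chondrocytes of each library. Outside chondrocytes, Cox6a2 made up 5.84% of its pair in PTH and 11.9% in Control macrophage-like cells (22 and 43 UMIs), and Cox7a1 made up 3.31% of its pair in PTH and 3.12% in Control pericyte-like cells (8 and 10 UMIs). Their highest levels were in a muscle-led cluster of 11 PTH and 15 Control cells, seen without the mt- maximum. There Cox6a2 had 1183 CPM in PTH and 1298 CPM in Control, Cox8b had 519 CPM in PTH and 590 CPM in Control, and Cox7a1 had 386 CPM in PTH and 330 CPM in Control.

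**Figure D4:**
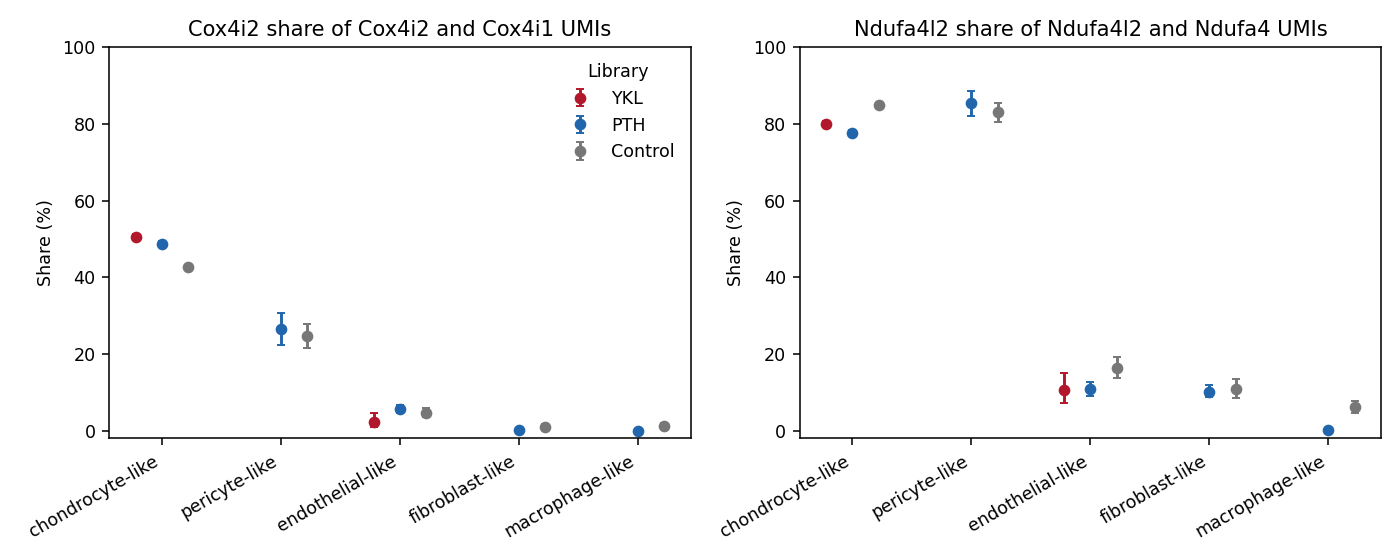
Share of Cox4i2 in Cox4i2 and Cox4i1 UMIs (left) and of Ndufa4l2 in Ndufa4l2 and Ndufa4 UMIs (right), in percent, by cell class, with a point per library of at least 50 cells and bars for exact 95% binomial intervals. On the left chondrocyte-like cells lie highest, between 42.6% and 50.5%, and on the right chondrocyte-like and pericyte-like cells lie above all other classes drawn.

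The isoform shares differed among the chondrocyte clusters as well. In cluster 3, with the lowest mitochondrially encoded sum, Cox4i2 made up 56.8% in YKL, 56.9% in PTH and 50.5% in Control. In cluster 7, where that sum was highest, it made up 40.2% in YKL, 30.1% in PTH and 27.8% in Control. Its share was above Control in both treated libraries in all 6 clusters, cluster 5 with its 10 YKL cells included. The share of Ndufa4l2 was 90.9% in YKL, 88.3% in PTH and 93.7% in Control in cluster 3, and 55.5% in YKL, 48.7% in PTH and 65.0% in Control in cluster 7. In clusters 0, 6 and 8 the shares of YKL and PTH were instead slightly above Control, as in cluster 0 with 74.0% in YKL, 71.7% in PTH and 70.8% in Control, so the direction of the class total did not hold in every cluster. The level of Ndufa4l2 was nevertheless highest in Control in all 6 clusters. It was 1062 CPM in YKL, 509 CPM in PTH and 1530 CPM in Control in cluster 3, and 379 CPM in YKL, 367 CPM in PTH and 415 CPM in Control in cluster 0.

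Across all classes with at least 50 cells, Cox4i2 and Ndufa4l2 had the widest range of level of any nuclear member, 5.50 and 5.41 on the log2 scale of CPM plus 10. Next came Atp5g1, a gene for the c subunit of complex V (3.35), Ndufab1, the mitochondrial acyl carrier protein (3.19), and the complex I core subunit Ndufs3 (3.10). These 3 were highest in the macrophage-like class, which also held osteoclast RNA, and lowest in neutrophil-like cells. At the other end of expression, the testis genes Cox8c and Cox7b2 had 0 and 4 UMIs over all barcodes of the 3 libraries.

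In endothelial-like cells the mitochondrially encoded ratios depended on the mt- filter. With the 10% maximum the mitochondrially encoded sum of YKL was 1.00 times Control and that of PTH 1.09 times Control, and the nuclear sums were 1.03 and 1.01 times Control. With a maximum of 20% the mitochondrially encoded ratio was 0.781 for YKL and 0.960 for PTH over Control, and with none it was 0.842 and 0.951. The median log2 ratio of all genes was 0.12 for YKL and 0.13 for PTH over Control, so small ratios above 1 are within the general shift of these cells. Of 84 nuclear members measured, 5 were past 1.5-fold higher and 2 lower in YKL over Control, where 19.7% of 4744 genes passed, 13.7% higher and 6.01% lower. Higher were Ndufb1-ps with 385 CPM in YKL, 254 CPM in PTH and 170 CPM in Control, and Ndufa1 with 235 CPM in YKL, 133 CPM in PTH and 112 CPM in Control. Atp5k (1.6), Cox7c (1.58) and Ndufa3 (1.56) were also higher. These 5 genes were also past 1.5-fold in chondrocytes, in the same pair of libraries. Lower were the complex I assembly factor Ndufaf3 (0.437, 0.201 to 0.853) and Cox4i2 (0.398, 0.153 to 0.879), which rested on 10 and 7 UMIs in YKL. The Cox4i2 ratio was 7.0 (4.39 to 11.4) with an mt- maximum of 20%, so its direction was not stable. Haemoglobin took 2.88% of these cells' UMIs in YKL, 0.789% in PTH and 8.12% in Control, and its part was not tested.

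For PTH over Control in endothelial-like cells, where 12.3% of 7315 genes passed 1.5-fold, 9.73% higher and 2.6% lower, the members past it were mt-Atp8 (2.09), mt-Nd3 (1.54) and Ndufa4l2 (0.649, 0.501 to 0.842). Of these, mt-Atp8 alone stayed past 1.5-fold with a maximum of 20%, with none and when thinned to 2000 UMIs. With 20% mt-Nd3 was at 1.42 and Ndufa4l2 at 0.984, and with a maximum of 5% Ndufa4l2 was at 0.045. For YKL over PTH, where 18.4% of 6548 genes passed, 8.7% higher and 9.71% lower, Ndufa9 (1.91), Ndufa1 (1.77) and Ndufb1-ps (1.52) were higher, and Cox4i2 (0.413), Ndufaf3 (0.554) and mt-Nd4l (0.598) lower. With a maximum of 20% the Cox4i2 ratio was 4.09 instead. In fibroblast-like cells of PTH over Control, where 17% of genes passed, 9.89% higher and 7.14% lower, only mt-Atp8 and the assembly factor Ndufaf7 did, the second with 14.2 CPM in PTH and 24.6 CPM in Control. Pericyte-like cells had 15.6% of genes past 1.5-fold, 11.6% higher and 4.07% lower. Among members these were mt-Atp8, Sdha (1.55) and, at lower levels in PTH, Atp5g1 (0.549), Ndufa4 (0.630) and Atp5o (0.658). The nuclear sum of PTH was below Control in both classes, at 0.886 times in fibroblast-like and 0.899 times in pericyte-like cells.

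Macrophage-like cells went the other way. In PTH over Control their mitochondrially encoded sum was 59436 CPM in PTH (79 cells) and 45911 CPM in Control (140 cells), a ratio of 1.29. The nuclear sum was 42579 CPM in PTH and 27140 CPM in Control, a ratio of 1.57. Of 84 nuclear members measured, 51 were past 1.5-fold higher and 1 lower, where 27.3% of 5121 genes passed, 18.6% higher and 8.69% lower. The median log2 ratio of all genes was 0.16. The complex III core subunit Uqcrc2 had 261 CPM in PTH and 110 CPM in Control (2.37, 1.94 to 2.90), and Ndufa4 had 1349 CPM in PTH and 666 CPM in Control. Uqcr10, Uqcrq, Atp5md, Atp5k and Ndufab1 were all between 2.05 and 2.19. The lower member was Ndufa4l2, with 4 UMIs in PTH and 63 in Control. The chondrocyte collagen Col10a1 was also lower in these cells, at 18.0 CPM in PTH and 311 CPM in Control, and its part was not tested.

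The same PTH cells had more osteoclast RNA. Acp5, the osteoclast acid phosphatase, stood at 5504 CPM in PTH and 1293 CPM in Control, the protease Ctsk at 6191 CPM in PTH and 1132 CPM in Control, and Mmp9 at 1217 CPM in PTH and 72.7 CPM in Control. When the clustering was repeated without the mt- maximum, an osteoclast-like cluster of 15 YKL, 32 PTH and 27 Control cells separated, with nuclear sums of 49528 CPM in YKL, 54314 CPM in PTH and 36780 CPM in Control. The remaining macrophage-like cells then had 22206 CPM in PTH (90 cells) and 22518 CPM in Control (163 cells), a ratio of 0.986 (0.965 to 1.01). Those of them at or under 10% mt- UMIs had 22170 CPM in PTH (79 cells) and 22670 CPM in Control (141 cells). The part of the osteoclast-like cells in the ratio of 1.57 was not tested on its own.

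The 10% maximum removed few cells of the named chondrocyte-like clusters and many vascular cells. Of all barcodes with at least 500 genes, 81 in YKL (11.8%), 525 in PTH (21.5%) and 492 in Control (14.3%) were over 10% mt- UMIs. In a clustering without the maximum, cells over 10% made up 2.48% of chondrocyte-like cells in YKL, 4.98% in PTH and 4.41% in Control. They made up 24.6% of endothelial-like cells in YKL, 39.2% in PTH and 49.2% in Control, and 45.6% of pericyte-like cells in PTH and 33.9% in Control. Endothelial-like cells of Control were thus trimmed most. Clusters that stayed unnamed are outside these shares. Among them was a haemoglobin-rich cluster led by the cartilage genes Cnmd, Col9a3 and Matn3 (27 YKL, 58 PTH and 155 Control cells). How many of its cells were over 10% is not given here. The mitochondrially encoded to nuclear ratio of chondrocyte-like cells without the maximum was 0.763 in YKL, 1.31 in PTH and 1.17 in Control. That of endothelial-like cells was 3.15 in YKL, 3.58 in PTH and 3.88 in Control, so the order of the libraries in endothelial-like cells depended on the filter.

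Cells over the maximum also differed in their nuclear members. Because mt- UMIs are part of the total behind CPM, the nuclear sum is given here per 1000000 non-mt- UMIs. In chondrocyte-like cells over 10% it was 11057 in YKL (10 cells), 10656 in PTH (34 cells) and 11124 in Control (67 cells), and in those at or under 10% it was 24232 in YKL, 21605 in PTH and 23043 in Control. Fibroblast-like cells over 10% had 9778 in PTH and 10230 in Control, and those at or under 10% had 17852 in PTH and 20207 in Control. Both classes thus had much lower nuclear sums over the maximum in these libraries. Endothelial-like cells over 10% had 14498 in YKL (17 cells), 19848 in PTH and 20026 in Control, and those at or under 10% had 22402 in YKL, 22303 in PTH and 21833 in Control. Pericyte-like cells over 10% had 28508 in PTH and 24853 in Control, and those at or under 10% had 26364 in PTH and 28793 in Control, so their direction differed between the libraries. Cells over 10% were shallow, with median depths of 1743 UMIs in YKL, 3226 in PTH and 3377 in Control among chondrocytes.

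**Figure D5:**
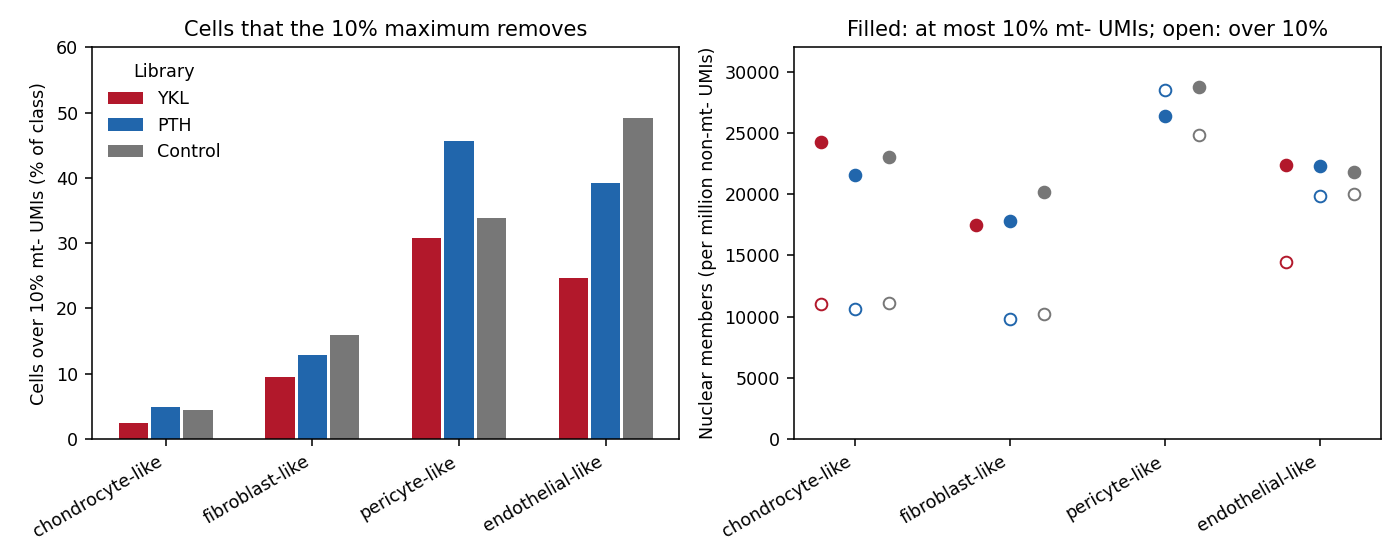
Left, share of each class over 10% mt- UMIs, in percent, when no maximum is applied, by library. Right, summed level of the nuclear members per 1000000 non-mt- UMIs in cells at or under 10% (filled) and over 10% (open), for groups of at least 10 cells. Open points lie well below filled ones in chondrocyte-like and fibroblast-like cells, less so in endothelial-like cells of PTH and Control, and above the filled point in PTH pericyte-like cells.

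Other mitochondrial genes were examined in chondrocyte-like cells for context. The shares of all genes past 1.5-fold, 18.3% in YKL over Control (9.9% higher, 8.44% lower) and 8.57% in PTH over Control (5.19% higher, 3.39% lower), apply to every count that follows. None of 16 citric acid cycle genes passed 1.5-fold in either treated library, with median log2 ratios of 0.12 for YKL and −0.08 for PTH over Control. Of 34 measured assembly factors that the symbol rule does not include, 2 were past 1.5-fold higher in YKL over Control, the copper chaperone Cox17 (1.74) and Cox20 (1.5), and 2 lower, Coa3 (0.665) and Sco2 (0.625). None of the 34 did in PTH over Control. Of 12 genes for transcription and replication of mitochondrial DNA, the helicase Twnk was lower in both, at 0.579 for YKL and 0.627 for PTH over Control. The mitochondrial RNA polymerase Polrmt (1.54) and Mterf1a (1.66) were higher in YKL. None of 16 genes for mitochondrial RNA handling passed in YKL, where most mt- transcripts were low, and in PTH Fastkd5 (1.65) was higher and Tbrg4 (0.590) and Fastkd3 (0.490) lower.

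Of 78 mitochondrial ribosome genes, 1 was higher and 2 lower past 1.5-fold in YKL over Control (18.3% of all genes) and none passed in PTH over Control (8.57% of all genes). Of 17 import genes, only Tomm7 of the outer membrane translocase passed, at 2.15 in YKL over Control (459 CPM in YKL, 214 CPM in Control). Of 17 glycolysis genes, Hk2 was higher in YKL (1.6) and the lactate exporter Slc16a3 lower in PTH (0.659), and the median log2 ratio was −0.18 for YKL and −0.32 for PTH over Control. Among 6 genes related to complex IV or to low oxygen, which include Ndufa4l2 itself, Higd1a was lower in PTH (1475 CPM in PTH, 2295 CPM in Control, 0.643). Of 12 mitochondrial stress genes Gdf15 was higher in YKL (1.97) and Chac1 lower in PTH (0.624).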

How the data were processed

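Raw UMI counts per gene and barcode were deposited by the authors for 3 libraries, and the software they give, per the file headers, is Cell Ranger 4.0.0. The submitters' processing notes also name Seurat and the build mm10, and any filter on cells before deposit is not given there. The lowest total of a deposited barcode was 500 UMIs. The members and the lists of related genes were chosen with earlier results of these data known.

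Cells with at least 500 genes and at most 10% mt- UMIs were kept. Scrublet marked 8 of 606 YKL, 7 of 1913 PTH and 40 of 2944 Control cells, which were removed. In PTH this is 0.366%, too low for the caller to have worked, so doublets remain. Counts were scaled to 10000 UMIs per cell, and 2000 variable genes chosen within libraries without the 107 members, fed 30 principal components, 15 neighbours and Leiden clustering at resolution 0.8 in scanpy 1.11.5, without integration. A cluster took a class name, written with "-like", from at least 3 markers, each found in a share of 0.1 or more of its cells and at 2 times the median cluster. It stayed unnamed with over 10% haemoglobin UMIs or where another class led its 10 leading genes. These naming thresholds were set after seeing the data, and names may differ from those of the study.

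UMIs were summed over the cells of a class and library and given as CPM. Sums have exact Poisson intervals, ratios exact conditional binomial intervals and shares Clopper-Pearson intervals. Only the ratio intervals were tried on simulated data. Those data were independent Poisson counts, the model the intervals assume, so they cannot show the effect of spread between cells or mice. Ratios were computed for classes with at least 50 cells in both libraries (clusters, 20 cells) and genes with at least 50 UMIs over both, and 1.5-fold is a size rule, not a test. Libraries of unequal depth give unequal precision, and UMIs of the same library are not replicates.

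The genes named were the 13 mt- genes, up to 5 nuclear members higher and 5 lower past 1.5-fold in each chondrocyte and endothelial comparison, the isoform pairs, complex II, the largest member of each complex, the 5 widest-ranging members, and up to 4 genes of each related list. Atp5md, Atp5mpl, Atp5e, Cox7c, members named in fibroblast-like, macrophage-like and pericyte-like cells, and Cox6b2, Cox8c and Cox7b2 were named after their values were seen where that rule does not take them. Transcript lengths are medians of protein-coding transcripts in GENCODE for GRCm38, found for 106 of 107 members. Of the 11340 genes compared, 10681 genes other than the members also had a length.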

Additional observations from a re-analysis of the deposited data

Results flagged for a closer look

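The PTH over Control ratios of macrophage-like and fibroblast-like cells lay on opposite sides of 1. The mitochondrially encoded sum stood at 1.29 in macrophage-like and 0.955 in fibroblast-like cells, and the nuclear sum at 1.57 and 0.886. With 1 library per group these differences were not tested, and the macrophage-like cells of PTH held more osteoclast RNA, as given above.

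Among chondrocyte-like clusters, the YKL over Control ratio of the nuclear sum was 1.10 in cluster 3 and 0.967 in cluster 7. The PTH over Control ratio of the mitochondrially encoded sum was 1.05 in cluster 3 and 0.930 in cluster 0. The YKL over PTH ratio of that sum was 1.01 in cluster 7 and 0.468 in cluster 3. These opposite directions were not tested either.

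Barcodes with fewer than 500 genes, which no comparison used, had a median of 22.8% mt- UMIs in PTH (2848 barcodes), against 1.95% in YKL (813 barcodes) and 2.81% in Control (4585 barcodes). Their median depth was 823 UMIs in PTH, 2228 in YKL and 4092 in Control.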

How the results depend on the processing

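No paired analysis was possible because each group had 1 library, and for the same reason no replicate could be left out. The following ratios are set against chondrocyte ratios of 0.745 (mitochondrially encoded) and 1.05 (nuclear) for YKL over Control, and 1.06 and 0.933 for PTH over Control.

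For YKL over Control the mitochondrially encoded ratio stayed below 1 in every alternative run. It was 0.697 with an mt- maximum of 5%, 0.709 with 20%, 0.697 with none, 0.738 with a minimum of 200 genes, 0.715 with 1000 genes and 0.752 at resolution 1.2. It was 0.740 scaled to non-mt- UMIs only, 0.754 scaled to the median of all genes, 0.644 thinned to 2000 UMIs, 0.795 with clusters weighted equally and 0.678 as a mean over cells. Of alternatives added after seeing the data, cells of 10000 to 30000 UMIs (159 YKL, 1175 Control) gave 0.469 and adding the unnamed clusters with chondrocyte markers 0.760. The nuclear ratio was 1.03 with a 5% maximum, 1.06 with 20%, 1.06 with none, 1.07 with 200 genes, 1.04 with 1000 genes, 1.06 at resolution 1.2, 1.05 scaled to non-mt- UMIs only, 1.07 scaled to the median and 1.04 with clusters weighted equally. It was 1.05 without assembly factors and pseudogene symbols. In alternatives added after seeing the data it was 1.05 in cells of 10000 to 30000 UMIs and 1.07 with the unnamed clusters. It changed side to 0.947 over members longer than 600 bases, a cut also added after seeing the data.

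For PTH over Control the mitochondrially encoded ratio changed side with at least 1000 genes (0.981), with clusters weighted equally (0.986) and in cells of 10000 to 30000 UMIs (0.988). It was 1.16 with a 5% maximum, 1.06 with 20%, 1.07 with 200 genes, 1.10 at resolution 1.2, 1.06 scaled to the median, 1.02 thinned, 1.01 as a mean over cells and 1.12 with the unnamed clusters. The nuclear ratio stayed below 1, at 0.944 with 200 genes, 0.946 with 1000 genes, 0.940 scaled to the median, 0.919 thinned, 0.925 as a mean over cells, 0.913 in cells of 10000 to 30000 UMIs and 0.886 over members longer than 600 bases. The cells of 10000 to 30000 UMIs and the cut at 600 bases were added after seeing the data.

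In endothelial-like cells the mitochondrially encoded ratio of PTH over Control changed side with a 20% maximum (0.960) and with none (0.951), and was 1.12 with 5% and 1.05 thinned. That of YKL over Control was 0.781 with 20% and 0.842 with none, and that of YKL over PTH 0.814 and 0.886. The nuclear ratio with 20% was 1.09 for YKL over Control and 1.07 for YKL over PTH. Cox4i2, on few UMIs, changed side with 20%, to 7.0 for YKL over Control and 4.09 for YKL over PTH. The nuclear ratio of PTH over Control macrophage-like cells was 0.986 (0.965 to 1.01, an interval that includes 1) without the maximum, where the osteoclast-like cells also formed a cluster of their own. The count of members past 1.5-fold in chondrocytes was 15 of 103 for YKL over Control, where 18.3% of all genes passed, and between 14 and 19 in its alternatives. With a 5% maximum it was 14 of 102, against 11% of all genes, and 10 of the 15 were among them. Thinned it was 19 of 99, against 21.9%, and 11 of the 15 were among them. With a minimum of 1 UMI it was 16 of 106, against 39.7%. The share of all genes thus moved more than the count. For PTH over Control the count was 3 of 103, against 8.57% of all genes. It was 5 of 100 when thinned, against 11.1%, and 5 of 105 with a minimum of 1 UMI, against 32.5%. Endothelial-like YKL cells were under 50 with a 5% maximum and when thinned, so no value was computed. The cause of each change of side was not tested, also where the set of members or cells itself was altered. Within the chondrocyte-like clusters, the ratio of the mitochondrially encoded to the nuclear sum was also recomputed for cells at or under 5% mt- UMIs and after thinning. Those values are not reported here. The ratios between libraries within clusters were not recomputed.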
